A study of Mus musculus with 12 samples.

Results

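The genes described here are 52 mouse genes of the WNT pathway: 16 WNT ligands, 12 receptors (10 frizzleds with the co-receptors Lrp5 and Lrp6), 8 secreted antagonists, the 4 R-spondins with their 3 LGR receptors, and 9 targets and nuclear factors. They were chosen by gene symbol, and all 52 were found among the 54446 genes of the authors' deposited expression table. The table holds 12 RNA-seq libraries of poly(A) RNA, with 3 libraries in each of 4 groups. SOX17+, SOX17+/T+ (double-positive) and T+ cells were sorted by reporter expression from differentiated cultures of E14, a mouse embryonic stem cell line, and mESC are undifferentiated E14 cells. T, also called Brachyury, marks the primitive streak and nascent mesoderm, and SOX17 is a transcription factor of endoderm. The mESC were grown on gelatin with irradiated primary mouse embryonic fibroblasts as feeders, in medium with fetal bovine serum and LIF, and whether feeders were removed before RNA extraction is not stated in the labels. The sources used here do not give the differentiation protocol or the build of the reporters. All groups come from the same cell line.

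WNT proteins are lipid-modified secreted signals. In the branch that acts through beta-catenin, a WNT bridges a frizzled and LRP5 or LRP6 and so protects beta-catenin from destruction, and beta-catenin then joins the TCF/LEF factors on DNA. R-spondins bind LGR4, LGR5 or LGR6 and clear the ubiquitin ligases RNF43 and ZNRF3, which otherwise take frizzleds off the cell surface. DKK1 binds the LRP co-receptors, while secreted frizzled-related proteins (SFRP and FRZB) bind WNTs. In the mouse embryo Wnt3 is needed for the primitive streak, from which mesoderm and definitive endoderm arise.

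Values are TPM, a level per transcript length scaled to the same total in each library, as the authors deposited them, listed in the order of replicates 1, 2 and 3. Means carry the SD over 3 libraries (n = 3 throughout). Fold changes are on the log2(TPM + 1) scale, with the standard error of a limma model fitted to all 16097 genes that reached 1 TPM in at least 3 of the 12 libraries. A gene was called changed at a Benjamini-Hochberg adjusted p under 0.05 over all tested genes, and "rose" and "fell" are used only of called genes. This scale understates changes of genes near 0: with a pseudocount of 0.1 in place of 1, 46 differences of 15 members, among them Wnt3a, Wnt8a, Wnt10b, Lgr5 and Rnf43, were over 1.5 times as large. Separate cultures behind replicate libraries are not stated in the labels, so the p-values rest on a spread that may be technical. In bulk RNA, fewer cells of a type and less RNA per cell cannot be told apart.

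Of the 52 members, 45 passed the filter on low values. These are 12 of 16 ligands, 12 of 12 receptors, 7 of 8 antagonists, 5 of 7 R-spondin and LGR genes and 9 of 9 targets and nuclear factors. The untested ligands Wnt1, Wnt2b, Wnt7a and Wnt10a reached at most 0.0296, 0.729, 0.2 and 0.269 TPM in any library. Rspo2 reached at most 1.04 TPM (in mESC) and Rspo4 at most 1.55 TPM (in T+). Dkk4 was listed at 0 in all 12 libraries. A further 5 tested members reached 1 TPM in the libraries of only 1 group, which were T+ for Wnt3a and mESC for Wnt4, Wnt7b, Dkk2 and Lgr6, so they could pass the filter only by differing.

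The reporter genes followed the sort. Sox17 had 244, 211 and 235 TPM in SOX17+, 148, 146 and 123 TPM in SOX17+/T+, 7.96, 9.99 and 12.9 TPM in T+ and 0.798, 0.483 and 0.632 TPM in mESC, and T had 2.27, 1.86 and 2.84 TPM in SOX17+, 40.4, 31.7 and 61.5 TPM in SOX17+/T+, 132, 92.1 and 158 TPM in T+ and 0.6504, 0.618 and 0.673 TPM in mESC. The SOX17+ gate also differed from the others in markers of other cell types. The summed level of 14 definitive endoderm markers ranged from 2990 to 3290 TPM in SOX17+, 2170 to 2400 TPM in SOX17+/T+, 627 to 776 TPM in T+ and 410 to 441 TPM in mESC. The keratins Krt18 and Krt8 were the largest parts in SOX17+, at means of 823 and 662 TPM. Of the 14, 12 rose and 1 fell in SOX17+ against T+, where 25.4% of all tested genes rose and 29% fell. In SOX17+ against SOX17+/T+ 10 rose and 2 fell, where 19.8% of all tested genes rose and 16.8% fell. Cxcr4 ran the other way, at means of 37.2 TPM in SOX17+, 53.4 TPM in SOX17+/T+ and 65.1 TPM in T+. Of 8 primitive blood markers, all 8 were over 1 TPM in SOX17+, where their sum ranged from 102 to 242 TPM, against 14.2 to 21.7 TPM in SOX17+/T+, 4.39 to 5.87 TPM in T+ and 1.96 to 2.37 TPM in mESC. The 10 presomitic and paraxial mesoderm markers ran the other way among the sorted cells. Their sum ranged from 12.1 to 14.7 TPM in SOX17+, 80.5 to 89.7 TPM in SOX17+/T+ and 266 to 314 TPM in T+. Tcf15 supplied most of the mESC sum of 103 to 117 TPM, averaging 94.6 TPM there. In the sorted cells Tcf15 averaged 1.02 TPM (SOX17+), 1.09 TPM (SOX17+/T+) and 4.13 TPM (T+). Over 1 TPM were 4 of the 10 markers in SOX17+, 9 in SOX17+/T+, 10 in T+ and 5 in mESC. The 11 extraembryonic endoderm markers summed to 525 to 532 TPM in SOX17+, 188 to 232 TPM in SOX17+/T+, 139 to 164 TPM in T+ and 594 to 708 TPM in mESC. Most of that sum was Sparc, at means of 394 TPM in SOX17+, 191 TPM in SOX17+/T+, 135 TPM in T+ and 587 TPM in mESC, while Ttr averaged 73.5 TPM in SOX17+, 4.69 TPM in SOX17+/T+, 1.22 TPM in T+ and 0.0426 TPM in mESC. Of its 10 tested markers, 9 rose in SOX17+ against T+ and 10 rose in SOX17+ against SOX17+/T+, beside 25.4% and 19.8% of all tested genes. The 8 endothelial markers summed to 62.5 to 76.0 TPM in SOX17+, 41.4 to 44.1 TPM in SOX17+/T+, 35.1 to 39.7 TPM in T+ and 39.8 to 40.4 TPM in mESC. Of the 6 node and notochord markers, 1 rose and 5 fell in SOX17+ against T+, beside 25.4% and 29% of all tested genes. Foxa2 averaged 83.5 TPM in SOX17+, 59.8 TPM in SOX17+/T+, 26.2 TPM in T+ and 0.968 TPM in mESC. Nog averaged 5.48 TPM in SOX17+, 16.9 TPM in SOX17+/T+, 24.6 TPM in T+ and 1.07 TPM in mESC. Within groups, Pearson's r between libraries was 0.995 to 0.997 across tested genes.

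Against mESC, most WNT genes changed in each sorted population, as did most genes. In SOX17+ against mESC 24 of the 45 tested members rose and 17 fell, where 85.4% of all tested genes were called, 35.4% higher and 50% lower. In SOX17+/T+ against mESC 27 rose and 13 fell, where 85.2% of all tested genes were called, 34.9% higher and 50.3% lower. In T+ against mESC 28 rose and 12 fell, where 84% of all tested genes were called, 34.5% higher and 49.5% lower. Changes of at least 2-fold were made by 25, 24 and 25 members in these comparisons, beside 31.5%, 30.3% and 30.6% of all tested genes. The median log2 fold change of the members was 0.20 in SOX17+, 0.78 in SOX17+/T+ and 0.72 in T+, where the median over all tested genes was -0.18, -0.19 and -0.17. These 3 comparisons share the mESC libraries. The counts of members that fell each include Wnt4, Wnt7b, Dkk2 and Lgr6, which passed the filter only through mESC, so their direction was set by the filter. Dkk2, Wnt7b and Lgr6 are also among the changes of at least 2-fold. Wnt3a, which passed only through T+, is likewise among the members that rose in T+ against mESC. The general downward shift depends on scaling, since quantile normalization put the median of all genes at 0.05, 0.063 and 0.066 and moved the share of called genes that rose to 52.4%, 53.2% and 53.4%, against 41.5%, 40.9% and 41% as deposited. Members then split into 26 higher and 15 lower in SOX17+, 28 and 12 in SOX17+/T+ and 32 and 11 in T+.

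Between the sorted populations, where fewer genes changed, the members differed in both directions. In SOX17+ against T+ 13 members rose and 21 fell, where 54.5% of all tested genes were called, 25.4% higher and 29% lower. At least 2-fold changes were made by 15 of them, 5 higher and 10 lower, beside 8.65% of all tested genes. In SOX17+/T+ against T+ 10 rose and 16 fell, where 28.4% of all tested genes were called (12.6% higher and 15.8% lower), with 8 of at least 2-fold (2.5% of all tested genes). The counts of falls against T+, and of those of at least 2-fold, both include Wnt3a, whose direction was set by the filter since it passed only through T+. In SOX17+ against SOX17+/T+ 9 rose and 19 fell, where 36.6% of all tested genes were called (19.8% higher and 16.8% lower), with 3 of at least 2-fold, all lower, beside 2.71% of all tested genes. The members' median log2 fold change was -0.06 in SOX17+ against T+, -0.08 in SOX17+/T+ against T+ and -0.10 in SOX17+ against SOX17+/T+, and that of all tested genes was -0.03, -0.03 and 0.001.

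**Figure D1:**
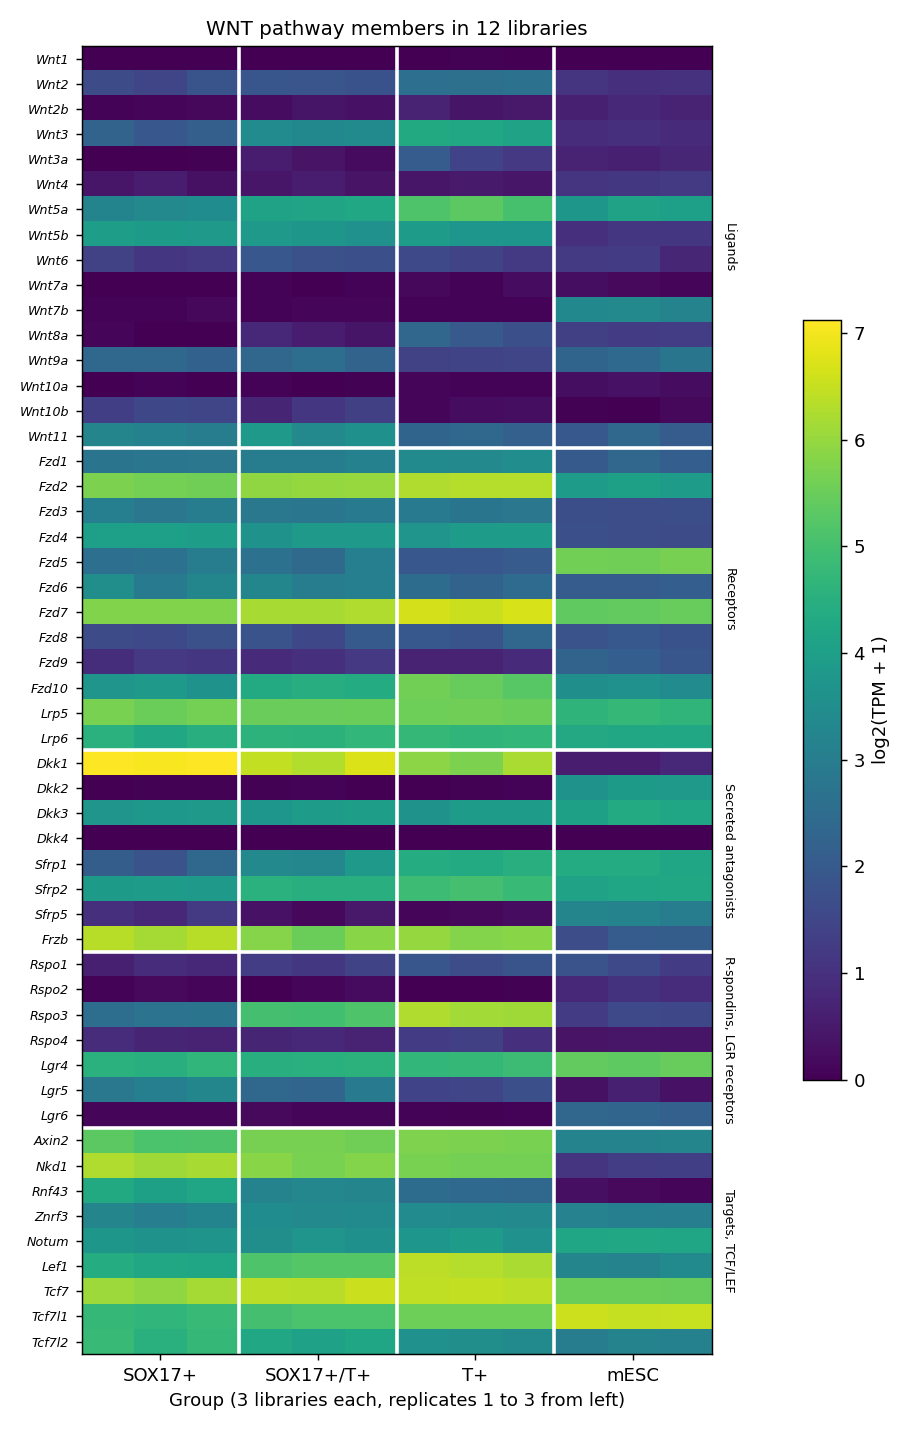
Levels of the members in each of the 12 libraries on the log2(TPM + 1) scale. Genes are grouped by class, and libraries are in the order SOX17+, SOX17+/T+, T+ and mESC. Libraries of a group look alike, and the double-positive libraries lie mostly between the SOX17+ and T+ ones. Their mean lay between the other two for 32 of 45 tested members, or 71.1%, beside 62% of all tested genes.

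Among the ligands, the canonical streak ligand Wnt3 and the ligand Wnt5a, best known for beta-catenin-independent signalling, were highest in T+ cells and fell step by step across the double-positive and SOX17+ populations. Wnt11 and Wnt6 were highest in double-positive cells, Wnt10b in SOX17+ cells, and Wnt7b and Wnt4 in mESC. The summed level of the 16 ligands was 43.9 ± 1.01 TPM in SOX17+, 62.1 ± 1.95 TPM in SOX17+/T+, 84.8 ± 6.44 TPM in T+ and 40.1 ± 2.81 TPM in mESC (SD, n = 3). Wnt5b made up the largest share of that sum in SOX17+ (31.4%), Wnt5a in SOX17+/T+ (27.4%), T+ (41.4%) and mESC (36.6%).

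Wnt3 (chr11:103774150-103817957 in GRCm38) had 3.81, 2.85 and 3.46 TPM in SOX17+, 9.88, 9.05 and 9.51 TPM in SOX17+/T+, 19.04, 17.8 and 16.3 TPM in T+ and 0.861, 0.937 and 0.784 TPM in mESC. No libraries of different groups overlapped, and the 3 sorted populations stood in the order T+, SOX17+/T+, SOX17+. Wnt3 was lower in SOX17+ than in T+ (log2 fold change of -2.10 ± 0.09, adjusted p = 4.5e-10), in SOX17+/T+ than in T+ (-0.83 ± 0.09, adjusted p = 1.3e-05) and in SOX17+ than in SOX17+/T+ (-1.27 ± 0.09, adjusted p = 2.5e-07), and it was higher than in mESC even in SOX17+ (1.23 ± 0.09, adjusted p = 1.6e-08). Wnt5a (chr14:28504750-28527448) had 8.27, 9.12 and 10.1 TPM in SOX17+, 16.1, 16.98 and 17.9 TPM in SOX17+/T+, 34.7, 38.8 and 31.8 TPM in T+ and 12.7, 16.2 and 15.3 TPM in mESC. T+ libraries were the highest and SOX17+ libraries the lowest, below those of mESC too, with double-positive and mESC libraries overlapping. The log2 fold change of Wnt5a was -1.83 ± 0.10, adjusted p = 3.9e-09 in SOX17+ against T+, -0.63 ± 0.10 in SOX17+ against mESC and 1.20 ± 0.10 in T+ against mESC. In SOX17+/T+ against mESC it was 0.20 ± 0.10, adjusted p = 0.066, which did not pass the test.

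The streak and tail ligands Wnt3a and Wnt8a were low in all groups and nearest to 0 in SOX17+. Wnt3a had 0, 0 and 0.0339 TPM in SOX17+, 0.452, 0.292 and 0.166 TPM in SOX17+/T+, 3.24, 1.704 and 1.25 TPM in T+ and 0.614, 0.552 and 0.688 TPM in mESC, and Wnt8a had 0.07102, 0 and 0 TPM in SOX17+, 0.774, 0.479 and 0.327 TPM in SOX17+/T+, 4.07, 2.96 and 2.31 TPM in T+ and 1.55, 1.37 and 1.47 TPM in mESC. In T+ both stood above mESC, and in SOX17+ both stood below it, without overlap. Wnt8a was lower in SOX17+ than in T+ (log2 fold change of -1.99 ± 0.14, adjusted p = 5.7e-08) and in SOX17+/T+ than in T+ (-1.42 ± 0.14, adjusted p = 6.3e-06). Wnt3a, which passed the filter only through T+, had a log2 fold change of -1.55 ± 0.18 in SOX17+ against T+, given as a description, and the 3 T+ libraries varied among themselves. Its difference between SOX17+ and double-positive cells did not pass the test (-0.36 ± 0.18, adjusted p = 0.14), although it did with a pseudocount of 0.1 or in a fit to those groups alone. Its fall in SOX17+ against mESC (-0.68 ± 0.18, adjusted p = 0.0032) was lost with quantile normalization (-0.27, adjusted p = 0.15).

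Wnt11 and Wnt6 were higher in double-positive cells than in both single-positive populations. Wnt11 (chr7:98835112-98855195), a ligand of beta-catenin-independent signalling in gastrulation movements, had 8.402, 7.68 and 6.98 TPM in SOX17+, 13.1, 9.29 and 11 TPM in SOX17+/T+, 3.91, 4.31 and 3.504 TPM in T+ and 2.92, 4.24 and 3.24 TPM in mESC. Every double-positive library stood above every SOX17+ and T+ library. The log2 fold change was 1.30 ± 0.13, adjusted p = 7.2e-06 in SOX17+/T+ against T+ and -0.47 ± 0.13, adjusted p = 0.011 in SOX17+ against SOX17+/T+. Wnt6 had 1.67, 1.16 and 1.33 TPM in SOX17+, 2.79, 2.43 and 2.35 TPM in SOX17+/T+, 1.97, 1.74 and 1.31 TPM in T+ and 1.32, 1.34 and 0.706 TPM in mESC, and its log2 fold change was 0.40 ± 0.13, adjusted p = 0.038 in SOX17+/T+ against T+ and -0.57 ± 0.13, adjusted p = 0.005 in SOX17+ against SOX17+/T+. Of all tested genes, 0.733% lay above both single-positive populations in this way. The pattern rests on few libraries: without SOX17+/T+ replicate 1 neither gene kept it (for Wnt11, SOX17+ against SOX17+/T+ was then -0.36, adjusted p = 0.052), and Wnt6 also lost it without SOX17+/T+ replicate 2 or 3, or T+ replicate 2 or 3.

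Of the other ligands, Wnt10b and Wnt9a were higher in SOX17+ than in T+, and Wnt2 was lower. Wnt10b had 1.51, 1.92 and 1.78 TPM in SOX17+, 0.672, 1.2 and 1.55 TPM in SOX17+/T+, 0.08099, 0.188 and 0.212 TPM in T+ and 0.0326, 0 and 0.103 TPM in mESC; it was higher in SOX17+ than in T+ (log2 fold change of 1.24 ± 0.13, adjusted p = 2.3e-06). Wnt9a was higher in SOX17+ than in T+ as well (0.88 ± 0.12, adjusted p = 3.2e-05), with means of 4.04 ± 0.371 TPM in SOX17+, 4.29 ± 0.596 TPM in SOX17+/T+, 1.73 ± 0.0799 TPM in T+ and 4.71 ± 1.01 TPM in mESC. Wnt2 was lower in SOX17+ (2.18 ± 0.415 TPM) than in T+ (5.21 ± 0.145 TPM), with a log2 fold change of -0.97 ± 0.09, adjusted p = 9.3e-07. Wnt5b rose in every sorted population, to 13.8 ± 0.706 TPM in SOX17+, 12.3 ± 1.02 TPM in SOX17+/T+ and 13.04 ± 0.992 TPM in T+, against 1.13 ± 0.117 TPM in mESC. Wnt4 averaged 0.365 ± 0.124 TPM in SOX17+, 0.364 ± 0.0857 TPM in SOX17+/T+ and 0.378 ± 0.0365 TPM in T+, against 1.23 ± 0.0853 TPM in mESC, the only group through which it passed the filter. Between SOX17+ and T+, Wnt5b differed by 0.08 ± 0.08, adjusted p = 0.44, which did not pass the test.

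Frizzled levels were dominated by the same genes in the sorted populations, Fzd7 and Fzd2, while Fzd5 marked mESC. The summed level of the 10 frizzleds was 160 ± 3.21 TPM in SOX17+, 198 ± 6.75 TPM in SOX17+/T+, 260 ± 5.76 TPM in T+ and 132 ± 1.7 TPM in mESC. Fzd7 made up 33.3%, 36.7%, 37.8% and 31.8% of the sum in these groups, and Fzd2 30.5%, 31.5%, 30.1% and 11.1%. Fzd5, known in the mouse for its role in yolk sac development, made up 3.61% of the sum in SOX17+, 2.89% in SOX17+/T+ and 1.12% in T+, against 36.2% in mESC.

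Fzd1, Fzd2, Fzd7 and Fzd10 fell stepwise across T+, double-positive and SOX17+ cells. Fzd10 (chr5:128600844-128604093) had 12.1, 13.2 and 11.6 TPM in SOX17+, 19.2, 20.6 and 19.7 TPM in SOX17+/T+, 47.9, 43.2 and 37.9 TPM in T+ and 10.7, 11.1 and 9.897 TPM in mESC. T+ libraries were clear of all others, and its log2 fold change was -1.72 ± 0.08, adjusted p = 1.1e-09 in SOX17+ against T+, -1.07 ± 0.08 in SOX17+/T+ against T+ and -0.65 ± 0.08 in SOX17+ against SOX17+/T+. Fzd7 had 53.2, 53.2 and 53.03 TPM in SOX17+, 71.5, 71.2 and 75.9 TPM in SOX17+/T+, 99.7, 92.3 and 103 TPM in T+ and 40.98, 41.6 and 43.5 TPM in mESC, and its log2 fold change was -0.87 ± 0.04, adjusted p = 3.1e-09 in SOX17+ against T+. Fzd2 averaged 48.8 ± 2.56 TPM in SOX17+, 62.5 ± 1.598 TPM in SOX17+/T+, 78.3 ± 1.28 TPM in T+ and 14.6 ± 0.702 TPM in mESC, with -0.67 ± 0.05, adjusted p = 6.7e-08 for SOX17+ against T+. Fzd1 averaged 5.88 ± 0.161 TPM in SOX17+, 7.25 ± 0.418 TPM in SOX17+/T+, 9.65 ± 0.584 TPM in T+ and 3.51 ± 0.577 TPM in mESC. For Fzd1 the step between SOX17+ and SOX17+/T+ was small (-0.26 ± 0.09, adjusted p = 0.032) and was lost when any of 5 libraries was left out (all of SOX17+, and SOX17+/T+ replicate 1 or 3).

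Fzd5 and Fzd6 ran the other way among the sorted cells. Fzd5 (chr1:64730558-64737751) had 5.04, 5.36 and 6.87 TPM in SOX17+, 5.35, 4.53 and 7.42 TPM in SOX17+/T+, 2.84, 2.83 and 3.09 TPM in T+ and 47.3, 46.6 and 49.9 TPM in mESC. All sorted libraries lay far below mESC, and SOX17+ and double-positive libraries lay above T+ (log2 fold change 0.78 ± 0.13, adjusted p = 2.6e-04 for SOX17+ against T+ and 0.77 ± 0.13 for SOX17+/T+ against T+). Against mESC, Fzd5 changed by -2.87 ± 0.13 in SOX17+, -2.88 ± 0.13 in SOX17+/T+ and -3.64 ± 0.13 in T+. Fzd6 was higher in SOX17+ (8.64 ± 1.82 TPM) than in T+ (4.37 ± 0.451 TPM), by 0.83 ± 0.12, adjusted p = 7.2e-05. Fzd4, also the receptor for the non-WNT ligand Norrin, and Fzd3 rose in every sorted population against mESC, Fzd4 to 15.1 ± 0.2295 TPM in SOX17+, 12.7 ± 0.944 TPM in SOX17+/T+ and 13.5 ± 1.11 TPM in T+, against 2.22 ± 0.115 TPM in mESC. Fzd3 averaged 6.89 ± 0.712 TPM in SOX17+, 6.22 ± 0.354 TPM in SOX17+/T+, 6.25 ± 0.5297 TPM in T+ and 2.247 ± 0.0205 TPM in mESC. Fzd8 and Fzd9 were low in all groups: Fzd8 averaged 2.16 ± 0.234 TPM in SOX17+, 2.52 ± 0.577 TPM in SOX17+/T+, 3.21 ± 0.786 TPM in T+ and 2.63 ± 0.236 TPM in mESC, and Fzd9 1.11 ± 0.195 TPM, 1.03 ± 0.223 TPM, 0.679 ± 0.106 TPM and 3.34 ± 0.547 TPM in the same groups.

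The co-receptors differed between groups by less than 2-fold. Lrp5 had 50.5, 44.7 and 48.5 TPM in SOX17+, 43.98, 44.3 and 45.1 TPM in SOX17+/T+, 45.5, 46.9 and 45.01 TPM in T+ and 23.8, 25.5 and 24.3 TPM in mESC. Every sorted library stood above mESC and the sorted populations overlapped. Its log2 fold change against mESC was 0.94 ± 0.05 in SOX17+, 0.83 ± 0.05 in SOX17+/T+ and 0.87 ± 0.05 in T+. Lrp6 averaged 20.6 ± 1.92 TPM in SOX17+, 23.8 ± 1.21 TPM in SOX17+/T+, 25.1 ± 0.957 TPM in T+ and 18.3 ± 0.376 TPM in mESC, and was lower in SOX17+ than in T+ (log2 fold change of -0.28 ± 0.06, adjusted p = 0.0026). Of the 12 receptors, 3 rose and 6 fell in SOX17+ against T+, beside 25.4% and 29% of all tested genes.

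Among the antagonists, Dkk1 and Frzb were abundant in all sorted populations and near 0 or low in mESC, Sfrp1 was lowest in SOX17+, and Dkk2 and Sfrp5 were highest in mESC. The summed level of the 8 antagonists was 243 ± 10.2 TPM in SOX17+, 189 ± 22.3 TPM in SOX17+/T+, 182 ± 10.3 TPM in T+ and 77.5 ± 4.02 TPM in mESC. Dkk1 and Frzb together carried most of it in the sorted cells, Dkk1 with 55.5% in SOX17+, 47.8% in SOX17+/T+ and 33.3% in T+, against 0.732% in mESC.

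Dkk1 (chr19:30545863-30549665), an inhibitor that captures LRP5 and LRP6 and is itself a WNT target, had 136, 130.1 and 138 TPM in SOX17+, 87.3, 78.2 and 106 TPM in SOX17+/T+, 57.4, 51.99 and 73.2 TPM in T+ and 0.459, 0.4805 and 0.758 TPM in mESC. No libraries of different groups overlapped, and the sorted populations stood in the order SOX17+, SOX17+/T+, T+. Its log2 fold change was 1.15 ± 0.13, adjusted p = 1.3e-05 in SOX17+ against T+, 0.57 ± 0.13, adjusted p = 0.0065 in SOX17+/T+ against T+ and 0.58 ± 0.13, adjusted p = 0.0042 in SOX17+ against SOX17+/T+. Frzb (chr2:80411970-80447625), a secreted frizzled-related protein, had 80.5, 70.96 and 80.6 TPM in SOX17+, 55.3, 44.8 and 56.6 TPM in SOX17+/T+, 63.1, 54.1 and 56.9 TPM in T+ and 2.23, 3.2 and 3.32 TPM in mESC. SOX17+ libraries were the highest, those of SOX17+/T+ and T+ overlapped, and the log2 fold change was 0.41 ± 0.12, adjusted p = 0.01 in SOX17+ against T+ and 0.56 ± 0.12, adjusted p = 0.0024 in SOX17+ against SOX17+/T+.

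Sfrp1 and Sfrp2 ran opposite to Dkk1. Sfrp1 (chr8:23411502-23449632) had 3.299, 2.51 and 4.26 TPM in SOX17+, 9.14, 8.901 and 13.5 TPM in SOX17+/T+, 20.2, 19.6 and 21.5 TPM in T+ and 19.6, 19.7 and 17.3 TPM in mESC. SOX17+ libraries were far below all others, and T+ overlapped mESC. The log2 fold change of Sfrp1 was -2.32 ± 0.15, adjusted p = 8.4e-08 in SOX17+ against T+, -0.92 ± 0.15, adjusted p = 8.0e-04 in SOX17+/T+ against T+ and -1.40 ± 0.15, adjusted p = 2.2e-05 in SOX17+ against SOX17+/T+. Sfrp2 had 13.7, 13.97 and 13.5 TPM in SOX17+, 22.4, 21.3 and 21.1 TPM in SOX17+/T+, 28.7, 31.6 and 26.5 TPM in T+ and 16.3, 17.02 and 17.9 TPM in mESC, with -1.02 ± 0.06, adjusted p = 1.6e-08 for SOX17+ against T+. Against mESC Sfrp2 was higher in T+ (0.73 ± 0.06) and SOX17+/T+ (0.32 ± 0.06) and lower in SOX17+ (-0.29 ± 0.06, adjusted p = 5.8e-04), and this last call was lost under median-of-ratios scaling (-0.14, adjusted p = 0.063) and under quantile normalization (-0.12, adjusted p = 0.11).

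The WNT members highest in mESC were examined beside the markers of feeder fibroblasts, which share the dish with mESC, and of naive pluripotency. Of 45 tested members, 12 had their highest mean in mESC: Wnt4, Wnt7b, Wnt9a, Fzd5, Fzd9, Dkk2, Dkk3, Sfrp5, Lgr4, Lgr6, Notum and Tcf7l1. The summed level of 13 feeder and contractile fibroblast markers was 70.4 to 78.2 TPM in SOX17+, 64.6 to 76.0 TPM in SOX17+/T+, 90.5 to 105 TPM in T+ and 3500 to 4370 TPM in mESC, where all 13 were over 1 TPM. Over 1 TPM were 7 of them in SOX17+, 7 in SOX17+/T+ and 8 in T+, and 2, 1 and 1 were listed at 0 there. The 8 naive pluripotency markers ran the same way. All 8 fell in SOX17+, SOX17+/T+ and T+ against mESC, beside 50%, 50.3% and 49.5% of all tested genes. They summed to 67.9 to 74.9 TPM in SOX17+, 48.2 to 56.1 TPM in SOX17+/T+, 51.1 to 58.2 TPM in T+ and 3730 to 3770 TPM in mESC. The part of feeder RNA or of the stem cells' own RNA in the mESC levels of these members was not tested.

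Dkk2 (chr3:132085292-132180304), a relative of Dkk1, had 0, 0.0285 and 0.0324 TPM in SOX17+, 0.0317, 0.053 and 0 TPM in SOX17+/T+, 0, 0.0299 and 0.0573 TPM in T+ and 11.5, 13.8 and 13.3 TPM in mESC. Wnt7b had 0.0491, 0.0457 and 0.114 TPM in SOX17+, 0.0594, 0.0666 and 0.07798 TPM in SOX17+/T+, 0.0567, 0.0579 and 0.0562 TPM in T+ and 8.94, 9.11 and 8.07 TPM in mESC, and Lgr6 had 0.0795, 0.0616 and 0.08701 TPM in SOX17+, 0.128, 0.0815 and 0.0644 TPM in SOX17+/T+, 0.05001, 0.0353 and 0.0419 TPM in T+ and 4.11, 3.99 and 3.57 TPM in mESC. All 3 genes lay near 0 in every sorted library and clear of 0 in every mESC library. In SOX17+ against mESC the log2 fold change was -3.76 ± 0.07 for Dkk2, -3.18 ± 0.06 for Wnt7b and -2.18 ± 0.06 for Lgr6, given as a description because these genes passed the filter only through mESC. Sfrp5 had 0.998, 0.751 and 1.296 TPM in SOX17+, 0.284, 0.116 and 0.394 TPM in SOX17+/T+, 0.0791, 0.1203 and 0.174 TPM in T+ and 8.46, 8.06 and 6.99 TPM in mESC; among the sorted cells it was higher in SOX17+ than in T+ (0.83 ± 0.11, adjusted p = 3.0e-05). Dkk3 averaged 12.7 ± 0.582 TPM in SOX17+, 13.7 ± 1.24 TPM in SOX17+/T+, 13.3 ± 1.54 TPM in T+ and 17.4 ± 2.12 TPM in mESC, and Notum 12.04 ± 0.595 TPM, 11.1 ± 0.965 TPM, 12.5 ± 1.44 TPM and 17.4 ± 0.496 TPM in these groups. Dkk3 and Notum, a secreted enzyme that removes the lipid from WNTs, differed from mESC by less than 2-fold, and the falls of Dkk3 in SOX17+/T+ and T+ were lost with median-of-ratios scaling and quantile normalization.

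**Figure D2:**
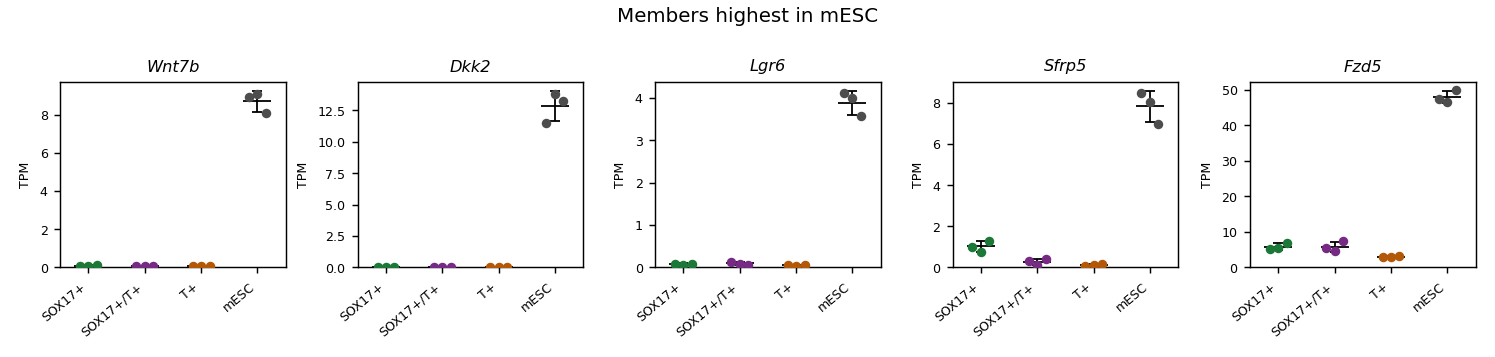
TPM of members with the highest mean in mESC, in each library of SOX17+, SOX17+/T+, T+ and mESC (points are libraries, bars the mean and SD, n = 3). Dkk2, Wnt7b and Lgr6 lie near 0 in all sorted libraries. The sum of 13 feeder and contractile fibroblast markers was 3500 to 4370 TPM in mESC, against at most 105 TPM in the sorted libraries. That of 8 naive pluripotency markers was 3730 to 3770 TPM in mESC, against at most 74.9 TPM in the sorted libraries.

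Rspo3 was graded over the sorted populations, highest in T+, and among the LGR receptors Lgr4 was the most abundant in every group while Lgr5 was highest in SOX17+. Rspo3 (chr10:29452416-29535867), a secreted amplifier of WNT signalling, had 4.99, 5.51 and 5.61 TPM in SOX17+, 31.3, 30.2 and 34.8 TPM in SOX17+/T+, 75.6, 68.95 and 67.4 TPM in T+ and 1.41, 1.97 and 1.89 TPM in mESC. No libraries of different groups overlapped. Its log2 fold change was -3.49 ± 0.09, adjusted p = 4.9e-12 in SOX17+ against T+, -1.11 ± 0.09, adjusted p = 7.7e-07 in SOX17+/T+ against T+ and -2.38 ± 0.09, adjusted p = 2.2e-09 in SOX17+ against SOX17+/T+. In SOX17+, too, Rspo3 was higher than in mESC (1.21 ± 0.09, adjusted p = 1.4e-08). It made up 77.9% of the summed R-spondin level in SOX17+, 93.5% in SOX17+/T+, 94.9% in T+ and 35.9% in mESC. Rspo1 followed the same order at lower levels, with means of 0.714 ± 0.164 TPM in SOX17+, 1.48 ± 0.269 TPM in SOX17+/T+, 2.495 ± 0.274 TPM in T+ and 1.95 ± 0.573 TPM in mESC. Its step between SOX17+/T+ and T+ (-0.50 ± 0.13, adjusted p = 0.015) was lost without SOX17+/T+ replicate 2 or T+ replicate 1.

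Lgr5 (chr10:115450311-115587780) had 6.27, 7.41 and 8.62 TPM in SOX17+, 4.28, 4.03 and 6.55 TPM in SOX17+/T+, 1.68, 1.78 and 2.34 TPM in T+ and 0.237, 0.531 and 0.267 TPM in mESC. All SOX17+ and double-positive libraries lay above T+, and SOX17+ and double-positive libraries overlapped. Lgr5 was higher in SOX17+ than in T+ (log2 fold change of 1.52 ± 0.16, adjusted p = 3.2e-06), and its step between SOX17+ and SOX17+/T+ (0.52 ± 0.16, adjusted p = 0.021) was lost without SOX17+ replicate 2 or 3 or SOX17+/T+ replicate 1 or 2. Lgr4 averaged 22.96 ± 1.805 TPM in SOX17+, 22.2 ± 0.682 TPM in SOX17+/T+, 26.4 ± 1.61 TPM in T+ and 41.4 ± 1.27 TPM in mESC. Its share of the summed LGR level was 75.4% in SOX17+, 81.7% in SOX17+/T+, 93.1% in T+ and 90.7% in mESC.

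The negative-feedback targets did not move together between the sorted populations. Rnf43 and Nkd1 were highest in SOX17+, Axin2 was the lowest of the sorted groups there, and Znrf3 and Notum differed by less than 2-fold between any groups. All of Axin2, Nkd1 and Rnf43 rose against mESC in each sorted population. Rnf43 (chr11:87662722-87735539), the ubiquitin ligase that removes frizzleds, had 19.2, 15.5 and 17.3 TPM in SOX17+, 8.13, 8.896 and 8.38 TPM in SOX17+/T+, 4.77, 4.43 and 4.25 TPM in T+ and 0.221, 0.1299 and 0.0851 TPM in mESC. The groups did not overlap, and its log2 fold change was 1.74 ± 0.08, adjusted p = 1.8e-09 in SOX17+ against T+, 0.79 ± 0.08, adjusted p = 1.4e-05 in SOX17+/T+ against T+ and 0.95 ± 0.08, adjusted p = 1.9e-06 in SOX17+ against SOX17+/T+. Znrf3, the related ligase, averaged 7.99 ± 0.6999 TPM in SOX17+, 9.56 ± 0.403 TPM in SOX17+/T+, 9.53 ± 0.225 TPM in T+ and 7.56 ± 0.381 TPM in mESC.

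Nkd1 (chr8:88521354-88594884), which binds Dishevelled, had 76.04, 68.1 and 72.1 TPM in SOX17+, 56.5, 50.2 and 54.7 TPM in SOX17+/T+, 50.3, 48.5 and 48.8 TPM in T+ and 1.09, 1.43 and 1.49 TPM in mESC. SOX17+ libraries lay above all others, by a log2 fold change of 0.54 ± 0.07, adjusted p = 2.2e-05 against T+ and 0.42 ± 0.07, adjusted p = 4.4e-04 against SOX17+/T+. SOX17+/T+ against T+ was 0.13 ± 0.07, adjusted p = 0.21, which did not pass the test. Axin2 (chr11:108920349-108950783), a scaffold of the destruction complex and a widely used WNT readout, had 39.1, 33.2 and 34.1 TPM in SOX17+, 49.5, 49.2 and 47.1 TPM in SOX17+/T+, 53.01, 51.2 and 50.2 TPM in T+ and 8.14, 8.08 and 8.53 TPM in mESC. SOX17+ libraries lay below those of the other sorted groups. The log2 fold change of Axin2 was -0.53 ± 0.06, adjusted p = 4.7e-06 in SOX17+ against T+ and -0.45 ± 0.06, adjusted p = 5.3e-05 in SOX17+ against SOX17+/T+, and -0.08 ± 0.06, adjusted p = 0.33 in SOX17+/T+ against T+, which did not pass the test.

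The 4 TCF/LEF factors, which carry beta-catenin to DNA, made up different mixtures in the 4 groups. Tcf7l1, known in mouse embryonic stem cells mainly as a repressor, led in mESC, Tcf7 led in every sorted population, Lef1 nearly matched it in T+, and Tcf7l2 took its largest share in SOX17+. Their summed level was 134 ± 8.62 TPM in SOX17+, 171 ± 7.52 TPM in SOX17+/T+, 221 ± 7.59 TPM in T+ and 152 ± 1.47 TPM in mESC. Lef1 made up 13.7 ± 1.29% of that sum in SOX17+, 21.1 ± 0.804% in SOX17+/T+, 35.7 ± 1.35% in T+ and 5.72 ± 0.563% in mESC. Tcf7l2 made up 18.4 ± 0.859%, 10.0 ± 0.781%, 4.68 ± 0.235% and 4.99 ± 0.445% in the same groups. Tcf7l1 made up 19.2 ± 0.64%, 19.2 ± 0.773%, 20.8 ± 0.792% and 60.2 ± 0.798%, and Tcf7 made up 48.7 ± 1.4%, 49.7 ± 1.44%, 38.8 ± 0.806% and 29 ± 0.664%.

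Lef1 (chr3:131110471-131224356) had 20.2, 18 and 17.1 TPM in SOX17+, 34.9, 36.7 and 36.6 TPM in SOX17+/T+, 84.5, 78.8 and 73.3 TPM in T+ and 8.36, 8.08 and 9.68 TPM in mESC. The groups did not overlap, and the log2 fold change was -2.04 ± 0.08, adjusted p = 1.6e-10 in SOX17+ against T+, -1.11 ± 0.08, adjusted p = 2.8e-07 in SOX17+/T+ against T+ and -0.93 ± 0.08, adjusted p = 1.0e-06 in SOX17+ against SOX17+/T+. Tcf7l2 (chr19:55741810-55933654) had 26.9, 21.9 and 25.5 TPM in SOX17+, 18.2, 15.9 and 17.4 TPM in SOX17+/T+, 11.1, 10.6 and 9.41 TPM in T+ and 6.91, 8.09 and 7.74 TPM in mESC. It ran in the reverse order without overlap, with 1.18 ± 0.09, adjusted p = 1.1e-07 in SOX17+ against T+, 0.68 ± 0.09, adjusted p = 7.0e-05 in SOX17+/T+ against T+ and 0.50 ± 0.09, adjusted p = 5.6e-04 in SOX17+ against SOX17+/T+. Tcf7l1 (chr6:72626378-72789254) had 25.9, 24.6 and 26.6 TPM in SOX17+, 31.2, 33.6 and 33.6 TPM in SOX17+/T+, 45.6, 46.1 and 45.98 TPM in T+ and 93.9, 89.7 and 91.3 TPM in mESC. It fell in every sorted population against mESC (-1.79 ± 0.04, adjusted p = 2.3e-13 in SOX17+, -1.46 ± 0.04 in SOX17+/T+ and -0.98 ± 0.04 in T+), and among them it was lower in SOX17+ than in T+ (-0.81 ± 0.04, adjusted p = 4.0e-09). Tcf7 had 66.5, 59.9 and 69.96 TPM in SOX17+, 81.99, 81.1 and 92.2 TPM in SOX17+/T+, 86.3, 86.97 and 83.9 TPM in T+ and 44.5, 44.8 and 43.2 TPM in mESC, and was lower in SOX17+ than in T+ (-0.39 ± 0.06, adjusted p = 9.1e-05) with SOX17+/T+ and T+ overlapping.

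**Figure D3:**
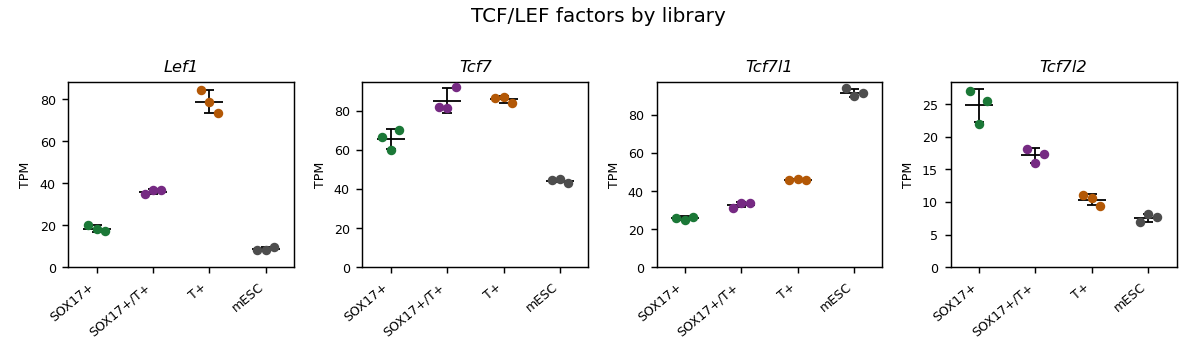
TPM of Lef1, Tcf7, Tcf7l1 and Tcf7l2 in each library (points) with the group mean and SD (n = 3), for SOX17+, SOX17+/T+, T+ and mESC. Lef1 and Tcf7l2 run in opposite orders over the sorted populations, with Lef1 at 18.4 TPM in SOX17+ and 78.9 TPM in T+, and Tcf7l2 at 24.8 TPM in SOX17+ and 10.4 TPM in T+.

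The steps between the sorted populations were counted for all tested members. Stepwise genes were those called with equal sign in SOX17+/T+ against T+ and in SOX17+ against SOX17+/T+; these comparisons share the SOX17+/T+ libraries. Of 45 members, 13 (28.9%) were stepwise with the highest level in T+, where 7.6% of all tested genes were: Wnt3, Wnt5a, Wnt8a, Fzd1, Fzd2, Fzd7, Fzd10, Sfrp1, Sfrp2, Rspo1, Rspo3, Lef1 and Tcf7l1. In the opposite order 5 members (11.1%) were stepwise with the highest level in SOX17+, where 8.13% of all tested genes were: Wnt10b, Dkk1, Lgr5, Rnf43 and Tcf7l2. The count of members highest in SOX17+ was 3 without SOX17+ replicate 2 or 3 or SOX17+/T+ replicate 1 or 2, since Lgr5 and Wnt10b then lost a step. The 10 presomitic and paraxial mesoderm markers, at 12.1 to 14.7 TPM in SOX17+ against 266 to 314 TPM in T+, ran in the order of the members highest in T+. The 14 definitive endoderm markers mostly ran in the order of the members highest in SOX17+. Their sum was 2990 to 3290 TPM in SOX17+ against 627 to 776 TPM in T+. Of the 14, 11 rose and 0 fell in SOX17+/T+ against T+ (12.6% and 15.8% of all tested genes). In SOX17+ against SOX17+/T+ 10 rose and 2 fell (19.8% and 16.8%). The 8 primitive blood markers, at 102 to 242 TPM in SOX17+ against 4.39 to 5.87 TPM in T+, ran in that order too. So did most endothelial markers, of which 5 of 7 rose in SOX17+ against T+ and in both steps. Extraembryonic endoderm markers shared 1 step: 10 of 10 rose in SOX17+ against SOX17+/T+. In SOX17+/T+ against T+ only 5 of the 10 rose, and 1 fell. The 6 node and notochord markers shared 1 step with the members highest in T+, since 5 fell in SOX17+ against SOX17+/T+. In SOX17+/T+ against T+ only 2 of these 6 markers fell, and 1 rose. The part of other cell types in these members' levels was not tested.

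**Figure D4:**
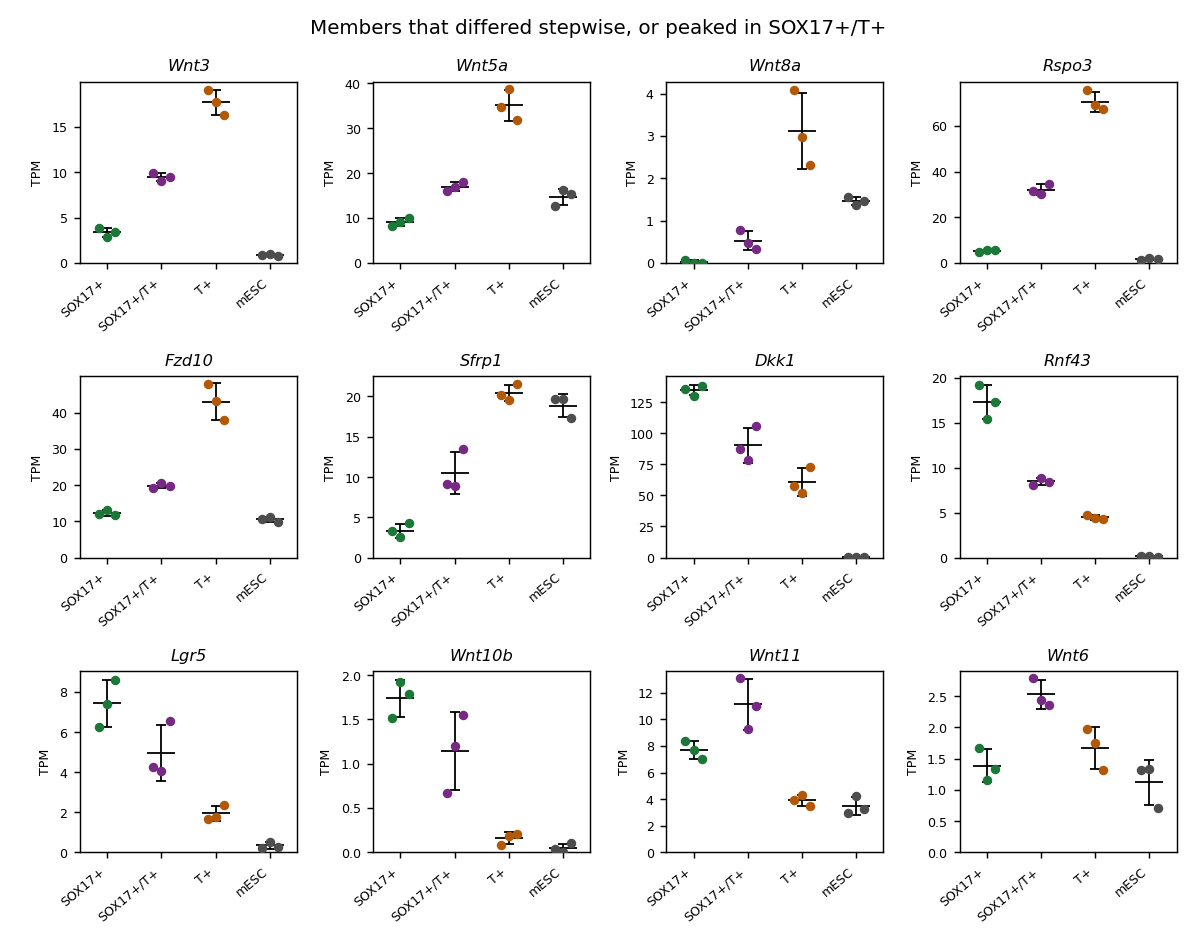
TPM by library of members that differed between the sorted populations, most of them stepwise, in SOX17+, SOX17+/T+, T+ and mESC. Rspo3 averaged 5.37 TPM in SOX17+ and 70.7 TPM in T+.

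**Figure D5:**
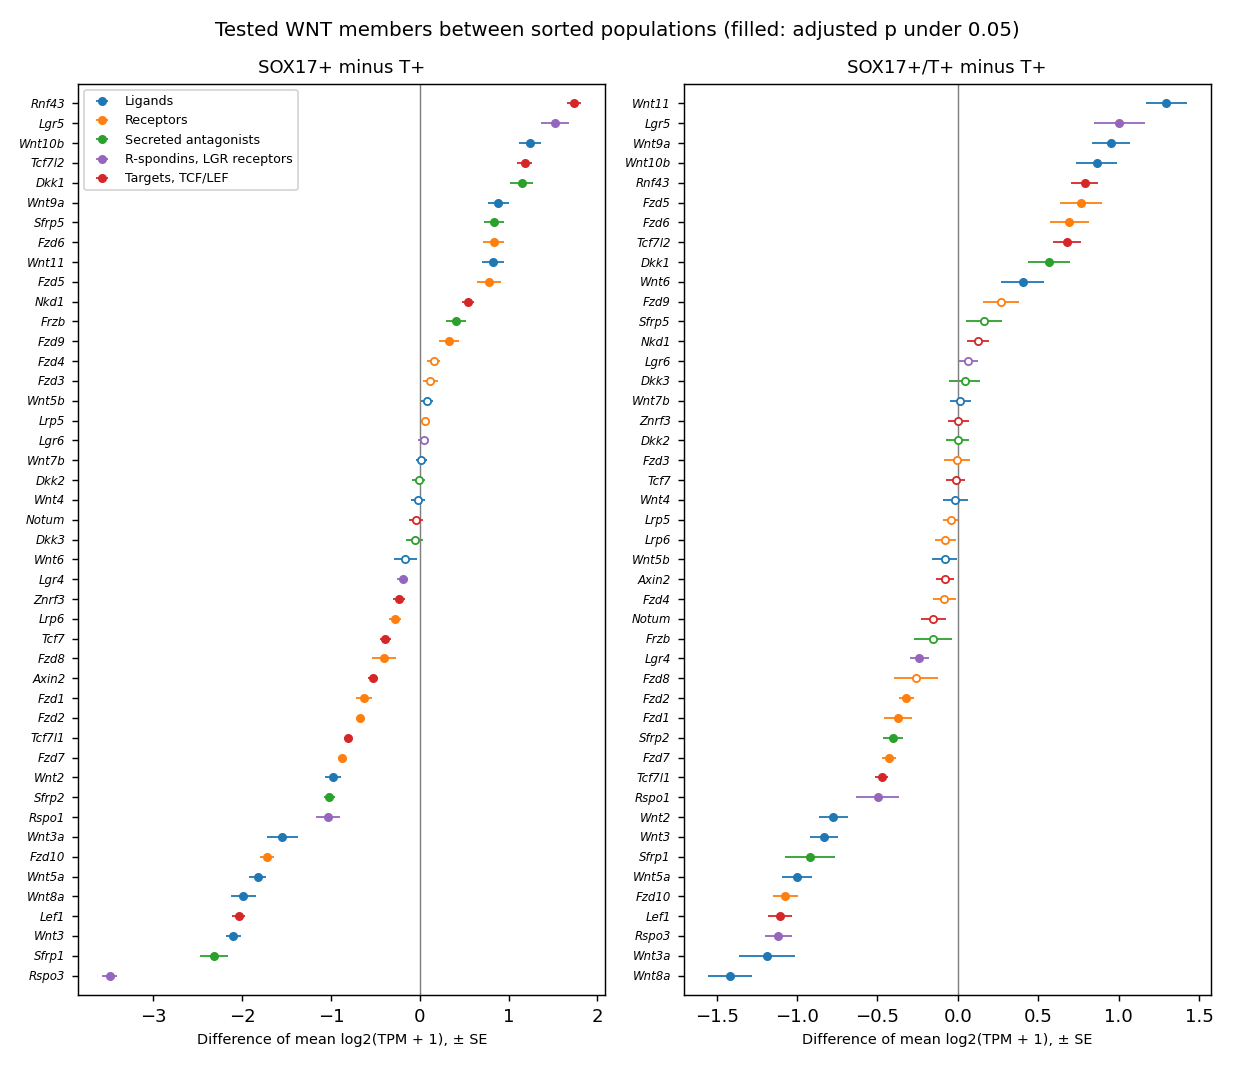
Log2 fold changes on the log2(TPM + 1) scale, with the standard error of the fit, of the tested members between the sorted populations, with filled points for called differences. On this scale SOX17+ against T+ runs from -3.49 for Rspo3 to 1.74 for Rnf43.

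Stretches of promoter DNA are shown because the TCF/LEF factors read a short motif there. Windows from RefSeq (GRCm38.p6), each 300 bases long with 250 bases before and 50 after an annotated start, were available for 34 of the 52 members. They were searched on both strands for the TCF/LEF motif in the form CTTTGAT, in the form CTTTGTT and in the form CTTTGAA. A match was present in 13.9% of all 32851 windows, in 14.0% of the 43 windows of members and in 21.4% of the 28 windows of members called in some comparison with a mean of at least 10 TPM in some group. No 2 matches overlapped in the last set. Of the 19 genes behind those 28 windows 6 held a match. The share over all member windows was thus close to that of promoters at large. The 30 bases around the matches follow, 5′ to 3′ on the strand of the gene, with the matches in capitals:
Dkk1: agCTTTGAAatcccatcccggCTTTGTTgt
Wnt3: cctcaagtggaCTTTGTTccaactattggg
Wnt11: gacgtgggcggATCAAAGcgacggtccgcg
Fzd7: tccacagagaaAACAAAGcgcgctattgga
Wnt5b: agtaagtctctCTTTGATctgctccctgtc
Tcf7l2: aaaatatcaggCTTTGTTcttttgattgaa
The Dkk1 stretch (chr19:30549586-30549615, minus strand) holds 2 matches, which begin 117 and 98 bases before the RefSeq start and lie inside the gene as the deposited table gives it. Within the Wnt3 stretch (chr11:103774182-103774211, plus strand) the match begins at base 19 after the start. The matches within the stretches of Wnt11 (chr7:98835050-98835079, plus strand) and Fzd7 (chr1:59482006-59482035, plus strand) read on the opposite strand and begin 51 and 130 bases before the start. Those within the stretches of Wnt5b (chr6:119449439-119449468, minus strand) and Tcf7l2 (chr19:55895296-55895325, plus strand) begin 71 and 14 bases before a start inside the gene. The genes with a match therefore include Dkk1 and Tcf7l2, highest in SOX17+, Wnt11, highest in SOX17+/T+, and Wnt3 and Fzd7, highest in T+. Axin2, the classical target, is shown for contrast with its whole window (chr11:108920099-108920398, plus strand), in which no match was found:
Axin2: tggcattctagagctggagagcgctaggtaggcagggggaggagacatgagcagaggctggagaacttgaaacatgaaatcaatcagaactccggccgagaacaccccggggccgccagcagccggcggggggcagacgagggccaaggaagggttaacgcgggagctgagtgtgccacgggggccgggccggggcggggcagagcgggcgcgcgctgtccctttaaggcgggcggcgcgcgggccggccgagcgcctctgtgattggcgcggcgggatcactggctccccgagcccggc

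Other genes of the pathway, outside the 52 members, were counted in the same fit. Of 7 tested genes of WNT lipidation and secretion, 6 rose in SOX17+ against T+ and 1 did not pass the test, where 25.4% of all tested genes rose and 29% fell. Porcn, the enzyme that attaches the lipid to WNTs, had 102, 107 and 73.5 TPM in SOX17+, 61.2, 60.1 and 35.9 TPM in SOX17+/T+, 16.7, 18 and 13.9 TPM in T+ and 47.4, 42.3 and 45.2 TPM in mESC, a log2 fold change of 2.46 ± 0.20, adjusted p = 2.9e-06 in SOX17+ against T+ without overlap. Wls, the carrier that takes WNTs to the surface, averaged 210.0 ± 8.97 TPM in SOX17+, 170.0 ± 5.35 TPM in SOX17+/T+, 169 ± 10.7 TPM in T+ and 41.9 ± 4.1 TPM in mESC. The ligands outside the members (Wnt8b, Wnt9b and Wnt16) did not reach the filter.

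Of 14 tested further secreted or surface modulators, 4 rose and 8 fell in SOX17+ against T+, again beside 25.4% and 29% of all tested genes. Wif1, a secreted inhibitor that binds WNTs, had 16.2, 14.5 and 13.9 TPM in SOX17+, 5.34, 5.16 and 6.15 TPM in SOX17+/T+, 1.78, 1.91 and 2.88 TPM in T+ and 0.192, 0.32 and 0.179 TPM in mESC, with 2.33 ± 0.12, adjusted p = 3.0e-09 for SOX17+ against T+. The heparan sulfate proteoglycan Gpc4 was higher in SOX17+ (20.1 ± 1.95 TPM) than in T+ (6.04 ± 0.155 TPM; 1.58 ± 0.08, adjusted p = 2.9e-09), and Igfbp4 was lower (57.7 ± 3.45 TPM in SOX17+, 181 ± 4.46 TPM in T+; -1.63 ± 0.06, adjusted p = 1.7e-10). Gpc3, another such proteoglycan, rose to 868 ± 29.6 TPM in SOX17+, 876 ± 2.85 TPM in SOX17+/T+ and 1180.0 ± 9.19 TPM in T+, against 27.3 ± 0.643 TPM in mESC. Of 17 destruction complex and Dishevelled genes, 5 rose and 3 fell in SOX17+ against T+, where 54.5% of all tested genes were called. The tankyrase Tnks, which marks AXIN for turnover, had 109 ± 11.6 TPM in SOX17+, 92.5 ± 6.1 TPM in SOX17+/T+, 73.7 ± 1.68 TPM in T+ and 24 ± 0.967 TPM in mESC.

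Among nuclear partners, 3 of 11 rose and 7 fell in SOX17+ against T+, where 25.4% of all tested genes rose and 29% fell. The co-repressors Tle4 and Ctbp2 were higher in mESC, Tle4 with 11 ± 1.49 TPM in SOX17+, 13.6 ± 0.563 TPM in SOX17+/T+, 23.4 ± 2.65 TPM in T+ and 96 ± 4.19 TPM in mESC. In SOX17+ against mESC Tle4 changed by -3.03 ± 0.09, adjusted p = 1.9e-12 and Ctbp2 by -2.36 ± 0.06, adjusted p = 7.9e-13. Of 13 tested genes of planar polarity and beta-catenin-independent signalling, 10 rose and 2 fell in SOX17+ against mESC, where 85.4% of all tested genes were called (35.4% higher and 50% lower), and 5 rose and 6 fell in SOX17+ against T+. Prickle1 rose to 34.7 ± 2.08 TPM in SOX17+, 31.9 ± 0.979 TPM in SOX17+/T+ and 29.3 ± 1.34 TPM in T+, against 4.9 ± 0.383 TPM in mESC.

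Of 17 further target genes, 2 rose and 14 fell in SOX17+ against T+, where 25.4% of all tested genes rose and 29% fell. In SOX17+/T+ against T+ 2 rose and 12 fell (12.6% and 15.8% of all tested genes), and in SOX17+ against SOX17+/T+ 1 rose and 13 fell (19.8% and 16.8%). Against mESC the split was different, with 9 higher and 7 lower in SOX17+, beside 35.4% and 50% of all tested genes. The presomitic factors Msgn1 and Tbx6, the signal Fgf8 and Bmp4 had the largest changes of these targets in SOX17+ against T+. Msgn1 had 0.0624, 0.0528 and 0.524 TPM in SOX17+, 12.2, 12.1 and 9.07 TPM in SOX17+/T+, 59.5, 56.9 and 39.1 TPM in T+ and 0, 0.226 and 0.0393 TPM in mESC, Fgf8 had 13.1, 7.82 and 16.2 TPM in SOX17+, 69.4, 54.1 and 72.4 TPM in SOX17+/T+, 138, 122 and 100.0 TPM in T+ and 4.32, 4.32 and 4.06 TPM in mESC, and Bmp4 had 43.2, 44.5 and 39.8 TPM in SOX17+, 119, 125 and 125 TPM in SOX17+/T+, 193, 201 and 190.0 TPM in T+ and 21.6, 20.6 and 20.9 TPM in mESC. Their log2 fold changes in SOX17+ against T+ were -5.44 ± 0.18, adjusted p = 1.7e-10 for Msgn1, -3.87 ± 0.16 for Tbx6, -3.22 ± 0.22 for Fgf8 and -2.17 ± 0.04 for Bmp4. Msgn1 and Tbx6 are also among the 10 presomitic and paraxial mesoderm markers given above. These targets are known from several tissues and are not specific to WNT.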

How the data were processed

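Poly(A) RNA of 12 libraries was sequenced with 100 bp paired reads from 500 ng of total RNA by a stranded kit, per the labels' protocols. The expression values are TPM as deposited, and sum to 1000000 in each library. Cutadapt, STAR, StringTie and the builds mm10 and GRCm38 are named in the submitters' processing notes. The sources used here do not give versions, the annotation release or the fragments reached per library, so the depth behind a value is unknown and no interval is given. Columns were matched to samples by the replicate and population in their names.

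Empty cells (282, 0 of them in rows of members) were set to 0, and rows were summed per gene identifier. Genes with at least 1 TPM in at least 3 libraries were fitted as log2(TPM + 1) with limma 3.58.1 in R 4.3.3, 1 mean per group over all 12 libraries, with eBayes trend and robust and the Benjamini-Hochberg adjustment over 16097 genes. The procedure was tested on simulated data. The 6 pairwise comparisons were made. The alternatives were a pseudocount of 0.1, no filter, median-of-ratios scaling, quantile normalization, plain eBayes, fits to the groups compared, a replicate block and leaving out each library. After removal of group means, SOX17+/T+ and T+ libraries with the same replicate number correlated at r = 0.204, 0.149 and 0.242 across genes. The numbers may therefore pair these groups, which the labels do not state. For SOX17+ and SOX17+/T+ the values were 0.0463, 0.178 and 0.224, and in no other pair of groups did all exceed 0.1. The calls given come from the fit without a replicate block.

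All members could be named. Of each further list of pathway genes, up to 4 called genes with the largest change per comparison could be named, and their values in other comparisons are given as TPM. Gpc3, Tnks and Prickle1 were named for their change against mESC. The members, lists and rules were chosen with earlier results of these data known. Promoter sequences are from RefSeq (GRCm38.p6), and the starts they use can differ from those of the deposited table. Gene coordinates (GRCm38, counted from 1) come from the deposited table.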

Additional observations from a re-analysis of the deposited data

Results flagged for a closer look

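In the limma fit, the members Wnt3a, Wnt5a, Wnt8a and Sfrp2 were called in opposite directions against mESC in SOX17+ and T+ cells, lower in SOX17+ and higher in T+. Both comparisons share the mESC libraries. The direct log2 fold change of SOX17+ against T+ was -1.83 ± 0.10 for Wnt5a, -1.99 ± 0.14 for Wnt8a, -1.55 ± 0.18 for Wnt3a and -1.02 ± 0.06 for Sfrp2. It is given here without a p-value, since these genes were picked for this difference and Wnt3a passed the filter on low values only through T+. The adjusted p-values given above for Wnt5a, Wnt8a and Sfrp2 in this comparison come from the fit over all tested genes. The fall in SOX17+ against mESC was lost for Wnt3a with quantile normalization (-0.27, adjusted p = 0.15), and for Sfrp2 it was lost when libraries were scaled by the median of ratios (-0.14 at an adjusted p of 0.063) or quantile-normalized (-0.12 at an adjusted p of 0.11), so for these 2 genes the opposite directions depend on the scaling. In SOX17+/T+ against mESC, Wnt8a was lower (-0.70 ± 0.14, adjusted p = 3.3e-04) and Sfrp2 higher (0.32 ± 0.06, adjusted p = 2.7e-04), and the other two did not pass the test.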

How the results depend on the processing

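Of 209 called differences of members, 189 kept their call and direction under each alternative run, 20 lost the call under at least 1, and 0 changed direction. Of 61 differences that were not called, 13 were called under at least 1 alternative. Calls lost were 10 without a filter on low values, 7 when only the groups compared were fitted, 5 with quantile normalization, 3 with median-of-ratios scaling, 3 with a pseudocount of 0.1 and 0 with limma's plain eBayes. The count of members stepwise with the highest level in SOX17+ was 5, but 3 with a pseudocount of 0.1, without a filter and with only the groups compared, and 3 to 5 when a library was left out. The count of SOX17+/T+ above both single-positive populations was 2, but 1 with a pseudocount of 0.1 and without a filter, and 0 to 2 when a library was left out. The cause was not tested. The count of members stepwise with the highest level in T+ was 12 to 14, against 13. These pattern counts were rerun under alternatives chosen after seeing the data. With the replicate number as a block, no called difference lost its call, and Wnt5a in SOX17+/T+ against mESC became called (0.20, adjusted p = 0.036). With the block in a fit to SOX17+/T+ and T+ alone, also added after seeing the data, 11 members rose and 16 fell, against 10 and 16, and Fzd9 became called (0.27, adjusted p = 0.031). The deposited values give no counts, so the depth behind low values such as those of Wnt3a, Wnt6, Wnt8a and Wnt10b is unknown.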
